A study of Mus musculus with 24 samples.

Results

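The genotype effect of losing GPR120 on a high-fat diet (HFD) was compared between 2 tissues of the same mice, epididymal fat and liver. The comparison uses the 12 HFD arrays among 24 in the series, taken from 6 of its 12 mice. They were chosen by diet, and they form 4 groups of 3 arrays: fat of GPR120 knockout (KO) mice, fat of wild-type (WT) mice, liver of KO mice and liver of WT mice. KO mice 427, 428 and 429 and WT mice 546, 547 and 560 each gave both tissues. All mice were on a mixed 129/Sv and C57BL/6 background, and all 12 arrays come from animals fed HFD. Total RNA was hybridised to Affymetrix mouse arrays. The sources used here give neither age nor the way the gene was disrupted. Sex is not stated, but epididymal fat comes from males. For each gene the KO minus WT difference in fat was set against that in liver, so a positive difference means a more positive KO effect in fat. The contrast asks which genes differ between the genotypes in opposite ways, or in 1 tissue alone.

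GPR120 is the product of Ffar4, a receptor that senses long-chain fatty acids through G proteins and is used mainly by adipocytes, by some macrophages and by gut endocrine cells. On a diet rich in fat, adipocytes store triglyceride in lipid droplets under the control of the nuclear receptor PPARγ, and fat that spills over is taken up by hepatocytes. A fatty liver then switches on droplet proteins and lipid enzymes that are otherwise typical of adipocytes, while inflamed fat gathers macrophages.

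Ffar4 itself was read by a single probe set and lay above the filter on low signals in fat alone. Its signal was 26.5, 30.5 and 23.1 in KO fat, against 97.3, 126 and 171 in WT fat. The KO arrays all lay below the WT arrays, and the log2 difference was -2.27 ± 0.24 (limma, adjusted p = 0.00635). In liver the signal was 18.3, 13.5 and 15.98 in KO liver, against 0.55, 1.19 and 1.63 in WT liver. That tissue had no test for Ffar4, because its mean over the 6 livers stayed below the filter of 14.4 intensity units. No source used here says whether the probes lie inside the disrupted part, so the remaining KO signal checks nothing.

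Array medians lay between 13.4 and 20.0 intensity units, and arrays of a group correlated with a Spearman's rho of 0.940 to 0.966. Precision is limited by having 3 arrays in a group. Tissue identity followed the labels: the adipocyte markers Adipoq, Lep and Retn reached at most 18.9, 6.69 and 4.34 units in KO liver and 21.3, 7.37 and 9.47 in WT liver, and Adipoq was at least 4440 in fat. Hepatocyte transcripts were present at a low level in fat. Alb measured 345 to 568 units in KO fat and 83.5 to 434 in WT fat, against 9310 or more in liver. Of the other cell types, Krt19 (406) and Cdh1 (343), which mark epithelium, were bright in the fat of KO mouse 427, and Myh4 (918) and Mb (950), which mark muscle, in the fat of WT mouse 547. The log2 ratio of 3' to 5' Actb probes, a sign of RNA quality, was 0.73 ± 0.10 in KO fat and 1.44 ± 0.28 in WT fat, and 1.70 ± 0.01 in KO liver and 2.04 ± 0.05 in WT liver (SD, n = 3 each). It was thus lower in KO mice in both tissues, and its part in the results was not tested.

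Of 10046 genes above the filter in both tissues, 919 (9.15%) were called for the difference between fat and liver at an adjusted p under 0.05 (limma with Benjamini-Hochberg adjustment). Of these, 358 had the more positive KO effect in fat and 561 the more positive effect in liver. The KO effect was called for 1673 genes in fat (16.7%, 847 higher and 826 lower) and for 559 in liver (5.56%, 340 higher and 219 lower). When each mouse's own fat minus liver value was used, which keeps the pairing as a fixed block, 245 genes were called for the difference, 229 of them among the 919. A named gene whose call ends under this fixed block is given with that adjusted p, as are losses in other fits. Losses without the filter on low signals or without both mice 427 and 547 are listed or counted at the end. Calls of further genes given as values, such as Fos, Jun, C1qb, Mki67 and Lipe, were not put through the other fits. The same holds for single-tissue calls of genes called for the difference without a class, such as Cxcl9. For 31.5% of genes the fat minus liver values of the 3 KO mice did not overlap those of the 3 WT mice, against 39.2% for the signals in fat alone and 30.1% in liver alone. The effect was larger in size in fat for 674 of the 919 genes. In whole tissue, fewer cells of a type and less RNA per cell cannot be told apart.

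Both tissues called 168 genes, which were 10.04% of those called in fat and 30.1% of those called in liver, against 5.56% and 16.7% of all tested genes. Of the 168, 129 moved the same way (99 higher and 30 lower in KO mice) and 39 moved in opposite ways. A further 483 genes were called in fat and for the difference while their liver effect was under 0.5 on the log2 scale and not called, and are named fat-limited here. By the same rule 133 genes were liver-limited. Of the fat-limited genes 201 were higher and 282 lower in KO fat, and of the liver-limited genes 93 were higher in KO liver. The limit of 0.5 is a line drawn through a continuum: 39 fat-limited genes lay within 0.1 below it, and 16 genes that met the other terms lay within 0.1 above it and so are not fat-limited. The same counts were 19 below and 10 above for the liver limit. A miss of the threshold in the other tissue does not show that the gene did not change there. With the mouse as a fixed block the difference kept its call for 31 of the 39 opposite genes, 129 of the 483 fat-limited genes and 23 of the 133 liver-limited genes.

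**Figure D1:**
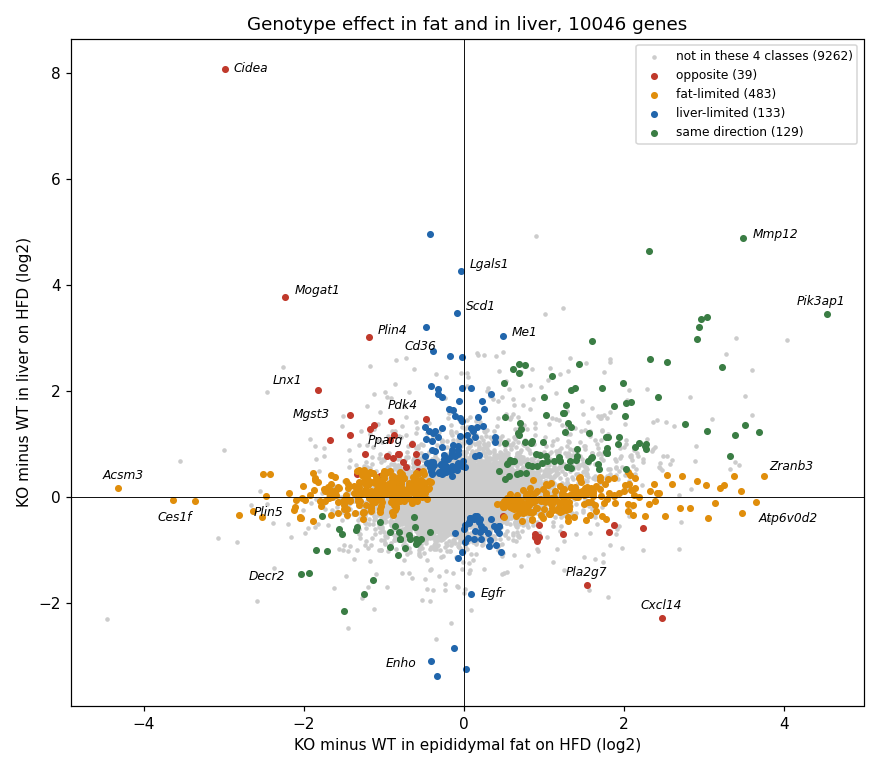
Each point is 1 of 10046 genes, with its log2 KO minus WT difference on HFD in epididymal fat on the x axis and in liver on the y axis; colours mark the 4 classes, and grey points belong to none of them. The 39 opposite genes lie in the upper left (27) and lower right (12) areas, with Cidea at the top, and the fat-limited and liver-limited genes lie along the axes.

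The 27 genes that were lower in KO fat and higher in KO liver included a group that handles stored fat. Cidea, which encodes a protein that enlarges lipid droplets, had the widest separation. Its signals were 21.9, 20.0 and 17.6 in KO fat, against 51.4, 157 and 478 in WT fat. They were 1402, 1072 and 844 in KO liver, against 6.10, 7.90 and 1.34 in WT liver. The 3 KO livers stood far above the WT livers, whose mean lay below the filter, so the rise in liver was at least 76.8-fold (adjusted p = 0.000466), and the fitted log2 values of 8.08 ± 0.58 in liver and -11.06 ± 1.04 for the difference depend on the floor set on low signals. The fall in fat, -2.99 ± 0.68 (adjusted p = 0.0257), rested on WT values that ranged widely. The call of Cidea in fat was lost without mouse 428, 429, 547 or 560 (adjusted p up to 0.0718).

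Mogat1 encodes a monoacylglycerol acyltransferase that feeds triglyceride synthesis. It had 27.2, 67.1 and 29.1 in KO fat, against 178, 148 and 207 in WT fat. In liver it had 236, 161 and 313 in KO liver, against 13.9, 24.7 and 13.8 in WT liver. KO and WT arrays were apart in both tissues, and every KO liver exceeded every KO fat pad, the reverse of WT mice. The log2 differences were -2.23 ± 0.34 in fat and 3.77 ± 0.30 in liver, and their difference was -5.99 ± 0.51 (adjusted p = 0.000235, 0.0271 with the mouse as a fixed block). All 3 calls were kept under every alternative tried.

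Plin4 encodes a perilipin, a coat protein of lipid droplets. Its signals were 1796, 3076 and 1573 in KO fat, against 4576, 4430 and 5032 in WT fat, and 368, 359 and 183 in KO liver, against 19.9, 70.5 and 32.8 in WT liver. No KO array reached the WT range in either tissue. The fall in fat was -1.18 ± 0.24 (adjusted p = 0.0168) and the rise in liver 3.01 ± 0.44 (adjusted p = 0.00982). The difference was -4.20 ± 0.58 (adjusted p = 0.00263). The call of Plin4 in fat was lost without mouse 546 or 560 (adjusted p up to 0.0705). Other losses came with a random mouse block or 1 spread for both tissues in fat for Plin4 (adjusted p up to 0.0581).

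Pparg, the gene of PPARγ, is the main transcription factor of adipocyte differentiation. It measured 313, 473 and 316 in KO fat, against 848, 701 and 816 in WT fat. In liver it measured 77.9, 82.6 and 102 in KO liver, against 27.5, 40.7 and 34.4 in WT liver. The groups did not overlap in either tissue, although the level in KO liver was still below that in KO fat. The differences were -1.12 ± 0.19 in fat and 1.36 ± 0.21 in liver, with -2.49 ± 0.27 between tissues (adjusted p = 0.000889). The call of Pparg in liver was lost without mouse 429 (adjusted p up to 0.0533).

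Pdk4 encodes the kinase that switches off pyruvate dehydrogenase and spares glucose. Its signals were 1560, 1727 and 1470 in KO fat, against 2789, 2989 and 3134 in WT fat, and 196, 211 and 187 in KO liver, against 72.4, 111 and 49.4 in WT liver. The KO and WT arrays were apart in both tissues. It fell by 0.91 in fat and rose by 1.43 in liver (difference -2.33 ± 0.31, adjusted p = 0.00218). The call of Pdk4 in liver was lost without mouse 427, 428, 429 or 546 (adjusted p up to 0.0791). Calls also ended with all 24 arrays fitted in fat for Pdk4 (adjusted p up to 0.154).

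**Figure D2:**
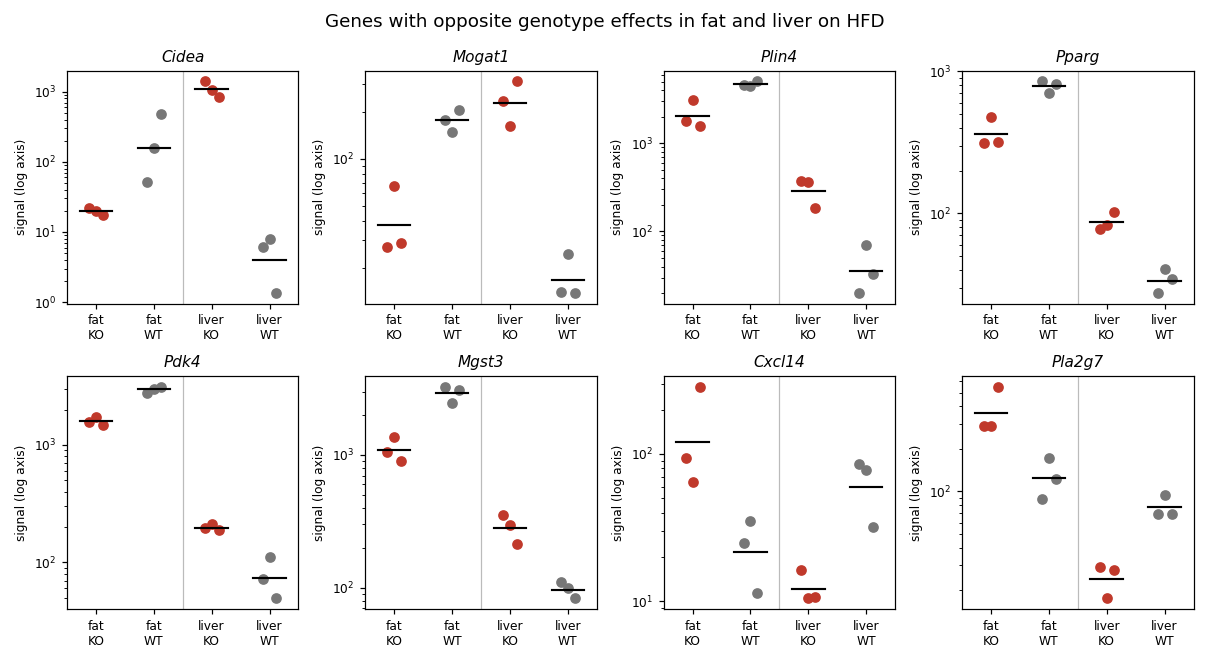
MAS5 signal (log axis) of 8 genes with opposite genotype effects on each of the 12 HFD arrays, with KO left of WT in fat and in liver; points are arrays (3 per group) and bars geometric means. Cidea, Mogat1, Plin4, Pparg, Pdk4 and Mgst3 are lower in KO fat and higher in KO liver, and Cxcl14 and Pla2g7 the reverse.

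Since PPARγ and related nuclear receptors bind DNA through the hexamer AGGTCA, the windows from 250 bases before to 50 after the starts of these genes were read from RefSeq (build GRCm38.p6) and searched on both strands. They are shown for 3 of the genes described above, Pparg, Mogat1 and Plin4, with any such hexamer in capitals. For Pparg the start of one of its transcripts is shown, on the plus strand at chr6:115360894-115361193. Mogat1 lies on the plus strand at chr1:78510810-78511109 and Plin4 on the minus strand at chr17:56109733-56110032.
Pparg: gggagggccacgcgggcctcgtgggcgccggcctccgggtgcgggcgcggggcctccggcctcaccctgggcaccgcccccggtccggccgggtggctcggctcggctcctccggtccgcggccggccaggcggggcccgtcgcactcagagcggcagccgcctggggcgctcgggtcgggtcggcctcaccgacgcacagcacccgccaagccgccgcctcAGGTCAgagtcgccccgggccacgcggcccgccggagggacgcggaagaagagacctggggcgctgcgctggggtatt
Mogat1: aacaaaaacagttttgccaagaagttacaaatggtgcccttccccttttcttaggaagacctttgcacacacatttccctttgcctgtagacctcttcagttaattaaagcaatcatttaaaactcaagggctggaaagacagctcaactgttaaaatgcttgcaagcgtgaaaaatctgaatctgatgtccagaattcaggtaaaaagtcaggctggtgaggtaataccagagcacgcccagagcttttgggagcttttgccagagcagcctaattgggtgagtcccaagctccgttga
Plin4: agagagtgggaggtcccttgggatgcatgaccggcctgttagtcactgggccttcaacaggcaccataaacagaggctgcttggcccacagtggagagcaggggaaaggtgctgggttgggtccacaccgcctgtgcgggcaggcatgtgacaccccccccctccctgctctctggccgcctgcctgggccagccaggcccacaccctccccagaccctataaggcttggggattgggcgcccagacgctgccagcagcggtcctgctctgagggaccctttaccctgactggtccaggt
The hexamer lay in this Pparg window and in neither of the other windows shown. Among 33 opposite genes with a window, 6 (18.2%) held it, against 15.0% of 8206 tested genes and 18.1% of all 27025 genes in the table. The fuller direct repeat AGGNCANAGGNCA was found in 0 of the 33, in 0.305% of the tested genes and in 0.451% of all genes. The hexamer can form part of that repeat. A match is a description of these letters and not of a bound site.

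Other genes of this direction span metabolism and cell structure. Mgst3, a microsomal glutathione transferase gene, had 1046, 1366 and 903 in KO fat, against 3265, 2442 and 3082 in WT fat, and 351, 298 and 214 in KO liver, against 110.2, 99.7 and 83.3 in WT liver. Every KO array was outside the WT range, and the difference of -2.95 ± 0.29 passed (adjusted p = 0.000522). Gstt1, another glutathione transferase gene, fell by 1.33 in fat and rose by 0.43 in liver (liver adjusted p = 0.0409). Lnx1, which encodes a ubiquitin ligase, measured 163, 145 and 71.8 in KO fat, against 408, 444 and 414 in WT fat, and 69.7, 148 and 209 in KO liver, against 28.9, 32.2 and 35.0 in WT liver. Its difference was -3.84 ± 0.51 (adjusted p = 0.00239). Enc1, an actin-associated kelch protein gene, was at -1.42 in fat and 1.16 in liver, Fbln5, an elastic fibre gene, at -1.23 and 0.80, and Slc44a3, a choline transporter-like gene, at -1.17 and 1.29. With 1 mouse left out (named in brackets), calls were lost in fat for Slc44a3 (any but 427), adjusted p up to 0.107 and in liver for Gstt1 (any 1 mouse), Lnx1 (428, 429, 546 or 547), Enc1 (427), Fbln5 (427, 429, 546 or 547) and Slc44a3 (427, 428 or 429), adjusted p up to 0.153. With probe sets averaged, calls were lost in fat for Fbln5, in liver for Mgst3, Gstt1, Enc1 and Fbln5, and between tissues for Enc1 and Fbln5 (adjusted p up to 0.988). Further calls were lost with a random mouse block or 1 spread for both tissues in liver for Gstt1, with all 24 arrays fitted in liver for Gstt1 and Fbln5 (adjusted p up to 0.14).

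Aox1 (aldehyde oxidase) was at -0.88 in fat and 0.73 in liver, Pex11a (peroxisome division) at -0.82 and 0.81, Dhrs7b at -0.81 and 0.81 and Rcan2, a calcineurin regulator gene, at -0.87 and 1.16. The noncoding RNA gene Snhg11 was at -1.67 in fat and 1.07 in liver, Pithd1 at -0.92 and 1.07 and Prxl2a at -0.96 and 0.77. All 7 passed in both tissues and for the difference. Averaging over probe sets turned the sign of Pithd1 (0.12 in fat and -0.34 in liver), and of Prxl2a (-0.12) and Uap1 (-0.12) in liver. Over all 27 genes the KO effects ran between -2.99 and -0.47 in fat, with a median of -0.96, and between 0.39 and 8.08 in liver, with a median of 1.01. The remaining members were Bckdhb, Echdc3, Fmo1, Gnai1, Kyat3, Rab34, Siah1a, Suclg2 and Uap1. Of these Rab34 had the largest liver rise (-0.47 in fat and 1.47 in liver) and Kyat3 the largest fall in fat (-1.32 and 0.49). Under the fixed block no difference call was left for Rcan2 (0.05), Uap1 (0.066), Fmo1 (0.0536), Gnai1 (0.108) and Kyat3 (0.0509). Leaving out the mouse in brackets ended calls in fat for Aox1 (any but 428), Pex11a (any but 428), Dhrs7b (any but 428), Rcan2 (428, 546 or 547), Pithd1 (428, 429, 546 or 560), Prxl2a (any but 428), Uap1 (any 1 mouse), Bckdhb (any but 428), Echdc3 (any but 428), Fmo1 (427, 429, 546 or 560), Gnai1 (any but 428), Kyat3 (429, 546, 547 or 560), Rab34 (any 1 mouse), Siah1a (427, 547 or 560) and Suclg2 (any but 427), adjusted p up to 0.156, in liver for Aox1 (427), Pex11a (427, 428, 429 or 546), Dhrs7b (427 or 546), Rcan2 (any but 560), Snhg11 (any but 560), Uap1 (any but 560), Echdc3 (427, 429 or 546), Fmo1 (any 1 mouse), Gnai1 (427, 429, 546 or 547), Kyat3 (any but 560), Siah1a (428, 429, 546 or 547) and Suclg2 (427 or 429), adjusted p up to 0.164, and between tissues for Fmo1 (429), adjusted p up to 0.0594. Averaging probe sets ended calls in fat for Dhrs7b, Rcan2, Pithd1, Prxl2a, Uap1, Echdc3, Gnai1 and Suclg2, in liver for Dhrs7b, Rcan2, Snhg11, Pithd1, Prxl2a, Uap1, Gnai1 and Siah1a, and between tissues for Dhrs7b, Pithd1, Prxl2a and Uap1 (adjusted p up to 0.819). More calls were lost with a random mouse block or 1 spread for both tissues in liver for Echdc3, Fmo1 and Kyat3, with all 24 arrays fitted in fat for Uap1 and in liver for Kyat3 (adjusted p up to 0.28).

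The 12 genes of the other direction, higher in KO fat and lower in KO liver, had effects of 0.49 to 2.48 in fat and of -2.29 to -0.37 in liver. Cxcl14 encodes a chemokine. Its signals were 94.3, 64.2 and 286 in KO fat, against 24.8, 35.2 and 11.4 in WT fat. In liver they were 16.3, 10.5 and 10.7 in KO liver, against 86.0, 78.2 and 31.9 in WT liver. KO and WT arrays were apart in both tissues. The rise in fat was 2.48 ± 0.60, the fall in liver was at least 4.54-fold because the KO mean lay below the filter, and the difference was 4.77 ± 0.81 (adjusted p = 0.00702). Calls were lost without the mouse in brackets in fat for Cxcl14 (429, 546 or 560), adjusted p up to 0.0985 and in liver for Cxcl14 (428, 429, 546 or 547), adjusted p up to 0.0781. The mean of probe sets ended calls in liver for Cxcl14 and between tissues for Cxcl14 (adjusted p up to 0.33). Other losses came with all 24 arrays fitted in liver for Cxcl14 (adjusted p up to 0.0526).

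Pla2g7 encodes a secreted phospholipase that breaks down platelet-activating factor, and in fat it is made by macrophages. It measured 289, 289 and 551 in KO fat, against 88.8, 173 and 122 in WT fat. In liver it measured 29.0, 17.4 and 27.6 in KO liver, against 69.0, 94.8 and 69.3 in WT liver. The groups were apart in both tissues, and the difference was 3.21 ± 0.44 (adjusted p = 0.00263). The call of Pla2g7 in fat was lost without mouse 546 or 560 (adjusted p up to 0.0719).

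Fgf1, the gene of a growth factor that PPARγ switches on in fat, had 267, 367 and 249.06 in KO fat, against 174, 189.6 and 111 in WT fat, and 350.3, 539 and 465 in KO liver, against 718, 968 and 717 in WT liver. It rose by 0.91 in fat and fell by 0.83 in liver. The DNA repair nuclease gene Dna2 was at 0.89 in fat and -0.77 in liver, Nagpa, which helps to tag lysosomal enzymes, at 0.95 and -0.75, and the endothelin-converting enzyme gene Ece2 at 0.89 and -0.69. With its probe sets averaged, Ece2 turned to 0.40 in liver. Omitting the mouse in brackets ended calls in fat for Fgf1 (any but 547), Dna2 (any but 547), Nagpa (any but 547) and Ece2 (428, 429, 546 or 560), adjusted p up to 0.118 and in liver for Fgf1 (427, 429, 546 or 547), Dna2 (427, 429, 546 or 547), Nagpa (any 1 mouse) and Ece2 (427, 428, 546 or 547), adjusted p up to 0.134. When probe sets were averaged, calls ended in fat for Fgf1, Dna2, Nagpa and Ece2, in liver for Dna2, Nagpa and Ece2, and between tissues for Dna2, Nagpa and Ece2 (adjusted p up to 0.874). Calls also ended with a random mouse block or 1 spread for both tissues in liver for Fgf1, Nagpa and Ece2, after quantile normalization in liver for Nagpa (adjusted p up to 0.0636).

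Some members of this direction are typical of hepatocytes. Gys2, liver glycogen synthase, had 61.6, 49.5 and 31.8 in KO fat, against 19.2, 15.9 and 24.1 in WT fat, and 974, 1164 and 1125 in KO liver, against 2126, 1861 and 1375 in WT liver. F10, coagulation factor X, had 86.2, 99.0 and 109 in KO fat, against 26.5, 63.6 and 12.7 in WT fat, and 1305, 1357 and 1250 in KO liver, against 2128, 2072 and 2010 in WT liver. Levels in fat were a small part of those in liver for both genes. Differences of 1.94 ± 0.34 and 2.48 ± 0.57 passed (adjusted p = 0.00771 and 0.0227) but not with the mouse as a fixed block (0.0765 and 0.0661). Cyp2c23 was at 2.24 in fat and -0.58 in liver. Of 14 hepatocyte genes above the filter in both tissues, 0 rose and 1 fell in KO fat (Cyp2e1), with medians of 0.75 in fat and -0.30 in liver. The summed signal of 20 hepatocyte genes was 7710 to 13100 in KO fat and 9240 to 10800 in WT fat, so the groups overlapped. Alb and Ttr were at 1.36 and 2.12 in fat and did not pass (adjusted p = 0.121 and 0.107). The part of hepatocyte transcripts in the rises of Gys2, F10 and Cyp2c23 was not tested. Daglb, Stard3 and Cnpy2 complete the direction, at 1.88, 0.94 and 0.49 in fat and -0.54, -0.54 and -0.37 in liver. With the fixed block the difference did not pass for Cyp2c23 (0.0713) and Cyp2e1 (0.072). Without the mouse in brackets, calls were lost in fat for Gys2 (any but 429), F10 (any but 547), Cyp2c23 (any but 547), Cyp2e1 (546 or 560), Stard3 (any but 428) and Cnpy2 (any but 428), adjusted p up to 0.138, in liver for Gys2 (any but 560), Cyp2c23 (any but 560), Cyp2e1 (any 1 mouse), Daglb (any 1 mouse), Stard3 (any but 560) and Cnpy2 (any but 560), adjusted p up to 0.164, and between tissues for F10 (427, 428, 429 or 546), Cyp2c23 (427, 546 or 560), Cyp2e1 (any but 428) and Stard3 (546), adjusted p up to 0.17. With probe sets averaged, calls were lost in fat for F10 and Cnpy2, in liver for Gys2, Cyp2e1, Daglb, Stard3 and Cnpy2, and between tissues for Cyp2e1 and Cnpy2 (adjusted p up to 0.724). Further calls were lost with a random mouse block or 1 spread for both tissues in liver for Gys2, F10, Cyp2c23, Cyp2e1, Daglb, Stard3 and Cnpy2, with all 24 arrays fitted in fat for Gys2 and in liver for Cyp2c23 and Daglb, after quantile normalization in fat for F10 and in liver for Cyp2e1 (adjusted p up to 0.492).

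Most opposite genes fell in the tissue where WT mice had the brighter signal. Of the 27 genes that fell in fat and rose in liver, 20 (74.1%) were brighter in fat than in liver in WT mice, against 1 (8.33%) of the 12 with the other direction. Across all tested genes, 59.0% were brighter in WT fat. The WT arrays enter both the direction and the preference, so these counts are a description.

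Adipocyte genes above the filter in both tissues followed this pattern as a list. Of 16 members above the filter in both tissues, 6 fell and 0 rose in KO fat, 0 fell and 7 rose in KO liver, and 8 were called for the difference, all lower in fat relative to liver. A further 5 members passed the filter in fat alone. The filter takes the mean of KO and WT livers, so a gene dim in WT liver, such as Cidea, passed if KO liver was bright. The liver counts and median thus lean toward rises. The median KO effect of the 16 was -0.77 in fat and 1.12 in liver, with -0.03 and -0.01 over all genes. Of adipocyte markers below the filter in liver, Lep was higher in KO fat, at 2570 to 4460 against 1010 to 2400 in WT fat. Retn was lower in KO fat (476 to 2020 against 4100 to 5270), and for Adipoq the groups overlapped (4440 to 6480 against 6440 to 7420). Cidea, Plin4 and Pparg moved in opposite ways, Cd36, Fabp4 and Lpl were liver-limited, Adipor2, an adiponectin receptor gene, was fat-limited (-1.21 and 0.25), and Cidec was called for the difference (-0.62 in fat, 2.42 in liver). Lipe and Pnpla2, the genes of 2 triglyceride lipases, fell in fat (-1.24 and -0.91) and were at -0.13 and -0.19 in liver, with no call for the difference. The summed signal of the list in liver was 22400 to 22900 in KO mice and 17200 to 20200 in WT mice, while Adipoq, Lep and Retn reached at most 18.9, 6.69 and 4.34 there in KO mice and 21.3, 7.37 and 9.47 in WT mice. Without mice 427 and 547, whose fat arrays held epithelial or muscle transcripts, 2 members fell in fat, 5 rose in liver and 6 were called for the difference, a check chosen after seeing the data that leaves 2 mice a group. The medians were then -0.59 in fat and 0.92 in liver. The fixed block ended the difference call of Fabp4 (0.0593), Lpl (0.0963) and Adipor2 (0.0508). With 1 mouse left out (named in brackets), calls were lost in liver for Lpl (427, 429, 546 or 547), adjusted p up to 0.0773 and between tissues for Lpl (427, 429 or 546), adjusted p up to 0.0584. Averaging probe sets ended calls in liver for Fabp4 and Lpl (adjusted p up to 0.056).

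**Figure D3:**
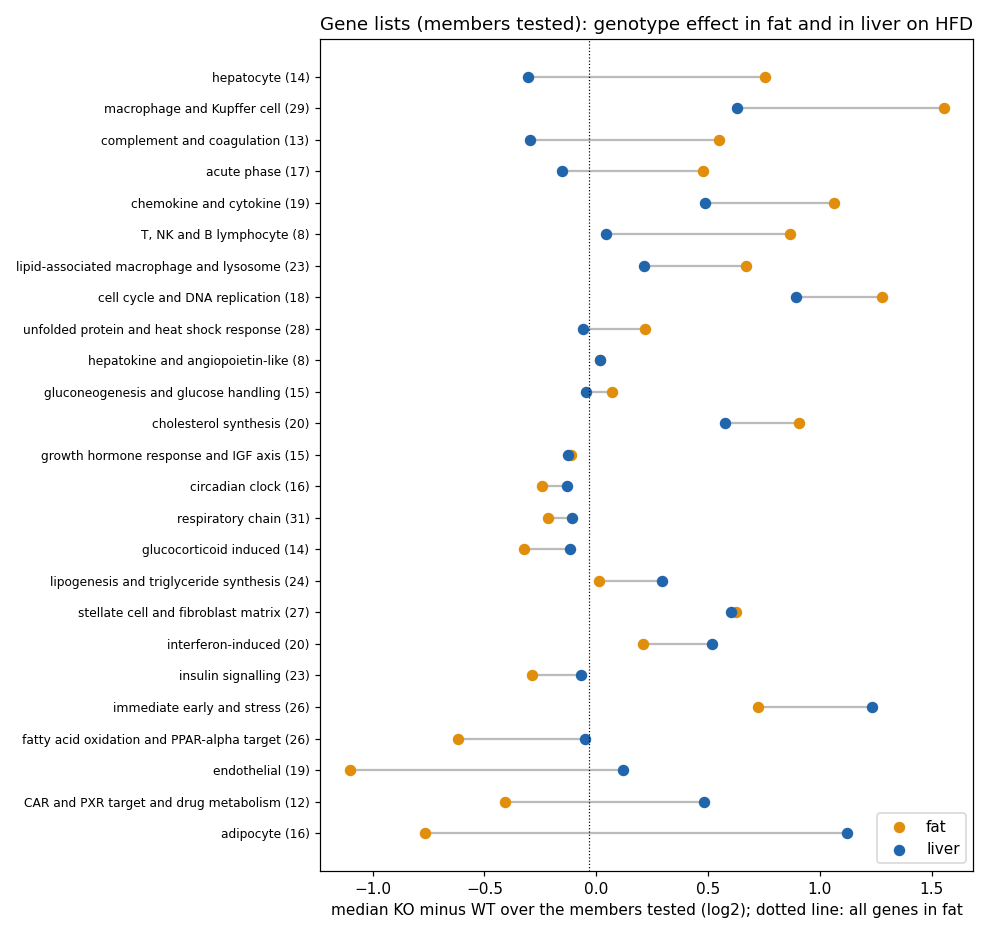
Median log2 KO minus WT difference on HFD over the tested members of each gene list, in fat (orange) and in liver (blue), for lists with at least 8 members; the number of members stands beside each name, lists are ordered by their median difference between tissues, and the dotted line is the median of all genes in fat. The adipocyte, drug metabolism and endothelial lists lie lowest in fat relative to liver, and the hepatocyte and macrophage lists highest.

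The 8 liver-limited rises named by size were of mixed function: Zfp979, Lgals1, Scd1, Gstm3, Me1, Kbtbd11, Cd36 and Vldlr. Lgals1 encodes galectin-1, a secreted sugar-binding protein of connective tissue and macrophages. Its signals were 7217, 8783 and 8697 in KO fat, against 8428, 8507 and 8280 in WT fat. In liver they were 3224, 2419 and 3521 in KO liver, against 150.2, 175 and 149 in WT liver. The fat groups overlapped, while the KO livers stood apart from the WT livers, at 4.26 ± 0.15 (adjusted p = 5.87e-06). The difference was -4.30 ± 0.19 (adjusted p = 4.21e-07, 0.0227 with the mouse as a fixed block).

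Scd1, stearoyl-CoA desaturase, makes monounsaturated fat. It had 5586, 6689 and 7101 in KO fat, against 6422, 6894 and 7153 in WT fat. In liver it had 9339, 10588 and 8878 in KO liver, against 509, 1027 and 1231 in WT liver. KO livers were brighter than any fat array, and the liver difference was 3.47 ± 0.28 (adjusted p = 0.000646). Cd36, a fatty acid uptake receptor gene, had 4541, 5787 and 5915 in KO fat, against 6305, 5805 and 6066 in WT fat, and 915, 815 and 930.0 in KO liver, against 122, 185 and 121 in WT liver. The fat groups overlapped and the liver groups did not, with 2.66 ± 0.17 in liver and -2.83 ± 0.23 between tissues (adjusted p = 0.000163). Me1, malic enzyme, which supplies NADPH for lipid synthesis, had 663, 854 and 629 in KO fat, against 429, 549 and 547 in WT fat, and 1173, 916 and 951 in KO liver, against 153, 127 and 95.6 in WT liver. Its liver rise was 3.03 ± 0.18 (adjusted p = 0.000139), and its fat value of 0.49 ± 0.17, with KO above WT arrays, lay just inside the limit of 0.5.

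Fabp4, the adipocyte fatty acid-binding protein gene, rose by 1.63 in liver, where it measured 925, 708 and 673 in KO liver, against 231, 285 and 226 in WT liver. In fat it was far brighter, at 7230, 8955 and 8852 in KO fat, against 9073, 8522 and 9798 in WT fat, with a log2 difference of -0.13. Its difference passed (adjusted p = 0.000992) but not with the mouse as a fixed block (0.0593). Lpl, lipoprotein lipase, was at 1.52 in liver and -0.11 in fat, and Vldlr, which takes up triglyceride-rich lipoproteins, at 2.64 in liver and -0.03 in fat. The glutathione transferase genes Gstm3 (3.20) and Gstm2 (2.05) also rose in liver, with -0.47 and -0.02 in fat. Kbtbd11 was at 2.75 in liver and -0.38 in fat. Zfp979 was at least 2.58-fold higher in KO liver, where the WT mean was below the filter, and at -0.42 in fat. Leaving out the mouse in brackets ended calls in liver for Kbtbd11 (427, 428, 429 or 546) and Zfp979 (427, 428 or 429), adjusted p up to 0.148 and between tissues for Gstm2 (546) and Kbtbd11 (427, 428, 429 or 546), adjusted p up to 0.0971. The mean of probe sets ended calls in liver for Kbtbd11 and between tissues for Kbtbd11 (adjusted p up to 0.373).

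Liver-limited falls were fewer than rises. Enho, which encodes the secreted peptide adropin, had 92.8, 37.4 and 20.3 in KO fat, against 82.7, 57.2 and 34.6 in WT fat, and 63.4, 34.2 and 76.0 in KO liver, against 554, 431 and 440.1 in WT liver. KO livers were all below WT livers (-3.10 ± 0.27, adjusted p = 0.000995), and in fat the groups overlapped. Egfr, the epidermal growth factor receptor gene, had 615, 958 and 2228 in KO liver, against 4448, 3844 and 3430 in WT liver, and was at 0.10 in fat. Its difference from fat was 1.92 ± 0.51 and that of Enho 2.70 ± 0.69. Cav1, the gene of the caveolar coat protein, fell by 1.16 in liver and was at -0.07 in fat. H2-Bl was at -2.86 in liver, Prxl2b at -1.04 and Ppan at -1.04. Tcea2 and Grip2 were at least 2.64-fold and 2.33-fold lower in KO liver. Differences lost with the fixed block were those of Enho (0.0661), Egfr (0.0889), Cav1 (0.257), H2-Bl (0.0578), Prxl2b (0.0884) and Ppan (0.0841). Calls were lost without the mouse in brackets in liver for Egfr (427, 428, 546 or 547), Cav1 (427, 429 or 546), Ppan (429, 546 or 547), Tcea2 (429, 546 or 547) and Grip2 (546 or 547), adjusted p up to 0.0974 and between tissues for Enho (any but 429), Egfr (any but 429), Cav1 (427, 429, 546 or 560), H2-Bl (546), Prxl2b (any but 429), Ppan (any but 560), Tcea2 (any but 427) and Grip2 (427, 429, 546 or 547), adjusted p up to 0.135. When probe sets were averaged, calls ended in liver for Tcea2 and between tissues for Enho, Egfr, Prxl2b and Tcea2 (adjusted p up to 0.57). More calls were lost with all 24 arrays fitted between tissues for Prxl2b (adjusted p up to 0.0725).

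**Figure D4:**
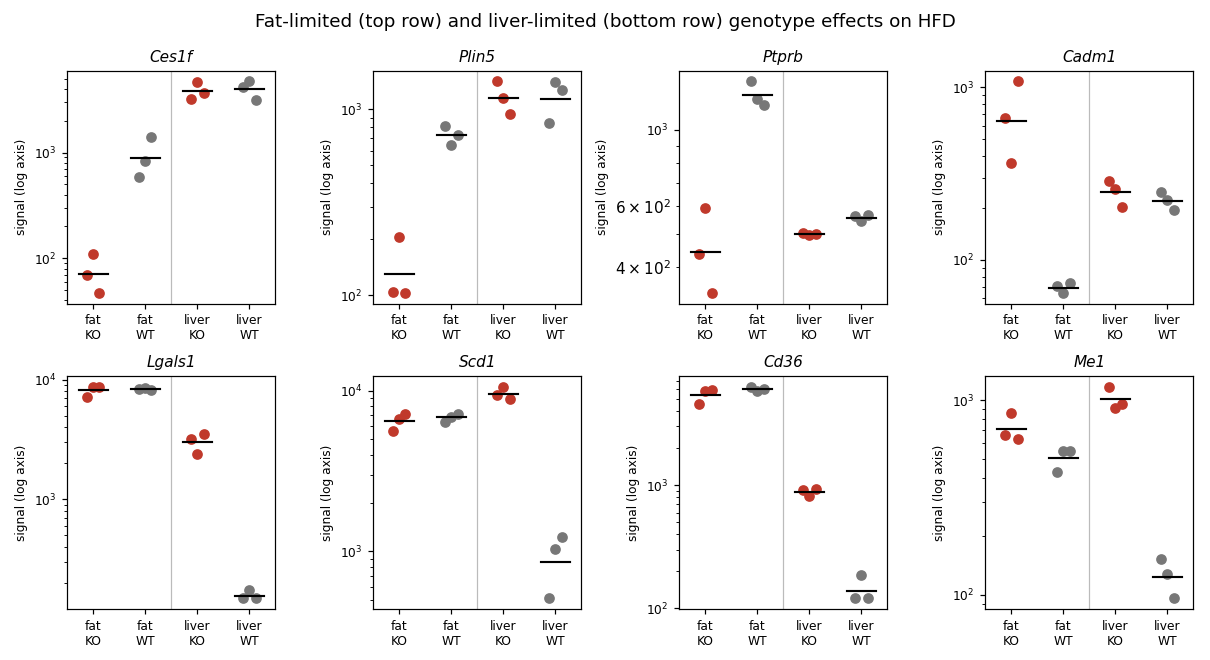
MAS5 signal (log axis) of 4 fat-limited genes (top: Ces1f, Plin5, Ptprb, Cadm1) and 4 liver-limited genes (bottom: Lgals1, Scd1, Cd36, Me1) on each of the 12 HFD arrays, with KO left of WT in each tissue; points are arrays (3 per group) and bars geometric means. In the top row KO and WT points separate in fat, and in liver they overlap for all but Ptprb. In the bottom row they separate in liver, and in fat they overlap for all but Me1.

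Fat-limited falls included lipid enzymes that liver also makes. Ces1f, a carboxylesterase gene, had 69.2, 109.7 and 46.8 in KO fat, against 582, 829 and 1416 in WT fat, and 3234, 4657 and 3626 in KO liver, against 4155, 4707 and 3171 in WT liver. The 3 KO fat arrays were all below the WT arrays while the livers overlapped, and the fall was -3.64 ± 0.39 (adjusted p = 0.00498). Ces1d, another carboxylesterase that acts on stored triglyceride, fell by 2.52 and was at -0.37 in liver. Plin5, the perilipin of oxidative tissues, had 104, 207 and 103 in KO fat, against 815, 642 and 729 in WT fat, and 1411, 1153 and 938 in KO liver, against 839.9, 1396 and 1270 in WT liver. It fell by 2.48 in fat and was at 0.01 in liver. Its difference of -2.49 ± 0.38 kept its call in all alternatives (adjusted p = 0.00423). Under the fixed block no difference call was left for Ces1d (0.0719). The call of Ces1d between tissues was lost without any 1 mouse but 428 (adjusted p up to 0.129).

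Vnn1, a pantetheinase gene, had 273, 507 and 358 in KO fat, against 2550, 1465 and 2430 in WT fat, and 3713, 4606 and 4599 in KO liver, against 2787, 3489 and 3290 in WT liver. The fat groups were apart. In liver the KO arrays lay above the WT arrays, without a call. The difference was -2.94 ± 0.33 (adjusted p = 0.00103). Its neighbour in function Vnn3 fell by 2.63 in fat, and Fam13a, a gene linked to fat distribution in humans, by 3.36. Acsm3, a medium-chain acyl-CoA synthetase gene, was at least 4.20-fold lower in KO fat and at 0.17 in liver. Acacb, acetyl-CoA carboxylase of the mitochondrial surface, fell by 2.42 in fat and was at 0.44 in liver. The noncoding Ctcflos fell by 2.81. With the fixed block the difference did not pass for Acsm3 (0.0574). Omitting the mouse in brackets ended calls in fat for Acsm3 (547 or 560), adjusted p up to 0.118 and between tissues for Ctcflos (546 or 560), adjusted p up to 0.0846. With probe sets averaged, calls were lost in fat for Acacb and between tissues for Acacb (adjusted p up to 0.222).

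Of 26 fatty acid oxidation and PPAR-alpha target genes, 10 fell and 0 rose in fat, 3 rose and 4 fell in liver, and 9 were called lower in fat for the difference, with 1 higher. The medians were -0.62 in fat and -0.05 in liver. Cpt2 (-1.06 in fat, 0.01 in liver), Slc25a20 (-0.76 and 0.01), Ech1 (-0.76 and 0.05) and Acads (-0.64 and 0.10), all of mitochondrial fat burning, were fat-limited. Hadha, a subunit of the trifunctional protein, fell in liver (-0.41) and was at 0.17 in fat, and Ehhadh fell in both (-1.52 and -0.71). Of 24 lipogenesis and triglyceride synthesis genes, 3 rose and 7 fell in fat, 4 rose and 0 fell in liver, and 7 were called lower in fat for the difference. Among them Acaca was at -1.24 in fat and 0.55 in liver, Gpam at -0.91 and 0.28, and Srebf1 at -0.57 and 0.96, of which the liver values and the fat value of Srebf1 did not pass. The respiratory chain, with 31 members, had 2 falls in fat (Ndufb8 at -0.58 and Ndufv1 at -0.61) and 0 calls in liver. It had 2 called differences (6.45%, against 9.15% of all tested genes). The fixed block ended the difference call of Cpt2 (0.0662), Slc25a20 (0.0516), Acads (0.0865), Hadha (0.104), Acaca (0.0547), Srebf1 (0.0698), Ndufb8 (0.118) and Ndufv1 (0.129). Without the mouse in brackets, calls were lost in fat for Cpt2 (429 or 560), Slc25a20 (560), Ech1 (560), Acads (429, 546, 547 or 560), Ndufb8 (429, 546 or 560) and Ndufv1 (429, 546, 547 or 560), adjusted p up to 0.102, in liver for Hadha (any 1 mouse), adjusted p up to 0.134, and between tissues for Cpt2 (427, 429, 547 or 560), Slc25a20 (429 or 546), Ech1 (427, 546 or 547), Acads (any but 547), Hadha (any 1 mouse), Srebf1 (427, 429, 546 or 560), Ndufb8 (any but 547) and Ndufv1 (any 1 mouse), adjusted p up to 0.168. Averaging probe sets ended calls in fat for Cpt2 and Gpam and between tissues for Cpt2, Hadha, Acaca, Gpam, Ndufb8 and Ndufv1 (adjusted p up to 0.488). Other losses came with a random mouse block or 1 spread for both tissues in liver for Hadha, with all 24 arrays fitted in liver for Hadha, after quantile normalization between tissues for Hadha (adjusted p up to 0.0782).

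Endothelial genes formed the list with the highest share of called differences among those with at least 8 members. Of 19 members, 15 fell in fat and 0 rose, 0 were called in liver, and 16 were called lower in fat for the difference (17 with Stab2, which was called in the other direction), a share of 89.5%. The median was -1.10 in fat and 0.12 in liver, and 14 members were fat-limited. Ptprb, a vascular phosphatase gene, had 438, 595 and 337 in KO fat, against 1381, 1224 and 1179 in WT fat, and 501, 497 and 499 in KO liver, against 562, 543 and 567 in WT liver. Eng, which encodes a co-receptor of the TGF-beta family, had 138, 144 and 154 in KO fat, against 310.5, 283 and 317 in WT fat, and 168, 163 and 178 in KO liver, against 143, 149 and 156 in WT liver. In both genes KO and WT fat arrays were apart by a wide margin. The liver arrays did not overlap either, but differed by -0.16 and 0.18 without a call, with differences of -1.34 ± 0.23 and -1.24 ± 0.15 between tissues (adjusted p = 0.00709 and 0.00136). The vessel guidance receptor gene Robo4 fell by 1.57 in fat, the receptor activity gene Ramp2 by 1.10, the growth factor receptor genes Kdr by 1.88 and Flt1 by 1.74, the vascular cadherin gene Cdh5 by 1.31 and the tight junction gene Cldn5 by 1.31. Their liver values were 0.19, 0.12, -0.45, -0.08, -0.15 and 0.10, and none passed. Differences lost with the fixed block were those of Stab2 (0.0912), Kdr (0.071), Flt1 (0.0763), Cdh5 (0.0721) and Cldn5 (0.0682). With 1 mouse left out (named in brackets), calls were lost in fat for Cldn5 (560), adjusted p up to 0.0519 and between tissues for Stab2 (427, 429, 546 or 560), Robo4 (546), Kdr (546 or 547), Flt1 (427, 429, 546 or 547), Cdh5 (427, 546, 547 or 560) and Cldn5 (428, 546 or 560), adjusted p up to 0.151. The mean of probe sets ended calls in fat for Cdh5 and between tissues for Cdh5 (adjusted p up to 0.749).

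Stab2, a scavenger receptor of liver sinusoids, was at 0.79 in fat and -0.22 in liver. Summed signals of the list were 4100 to 5930 in KO fat and 11400 to 11700 in WT fat, and 2440 to 2740 in KO liver and 2540 to 2630 in WT liver. Without mice 427 and 547, 15 members still fell in fat, with a median of -1.12. Called differences numbered 4, at a median difference of -1.26 against -1.24 with all mice.

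The 8 fat-limited rises named by size were of mixed function: Zranb3, Atp6v0d2, Slc25a13, Rnf128, Glipr1, Cd84, Cadm1 and Il1rn. Of the 8, Atp6v0d2 belongs to the list of lipid-associated macrophage and lysosome genes. That list had 23 members, of which 11 rose and 0 fell in fat, 8 rose and 1 fell in liver, and 4 were called higher and 4 lower in fat for the difference. Its medians were 0.67 in fat and 0.22 in liver. Atp6v0d2, part of the pump that acidifies lysosomes, had 1119, 1364 and 2697 in KO fat, against 60.7, 289 and 118 in WT fat, and 42.5, 29.8 and 30.3 in KO liver, against 41.4, 24.7 and 45.3 in WT liver. Its rise was 3.65 ± 0.55 in fat, and its difference did not pass with the fixed block (0.0599). Cadm1, a cell adhesion gene, had 663, 365 and 1082 in KO fat, against 70.5, 64.2 and 73.2 in WT fat, and 286, 257 and 203 in KO liver, against 247, 223 and 194 in WT liver. All KO fat arrays were above all WT fat arrays, and the difference of 3.05 ± 0.42 was kept in every alternative. Rnf128, a ubiquitin ligase gene, rose by 3.47 in fat, and Il1rn, the antagonist of the interleukin-1 receptor, by 3.14. Both kept their difference calls in all alternatives, with 0.10 and -0.12 in liver. Cd84, a leukocyte receptor gene, rose by 3.26, Glipr1 by 3.38 and Nceh1, a cholesterol ester hydrolase gene, by 2.83. In liver these 3 were at 0.21, 0.39 and -0.21. Zranb3, a DNA helicase gene, rose by 3.75, and Slc25a13, a mitochondrial aspartate carrier gene, was at least 2.60-fold higher in KO fat and at -0.31 in liver. Under the fixed block no difference call was left for Glipr1 (0.0652). Leaving out the mouse in brackets ended calls in fat for Slc25a13 (429 or 560) and Nceh1 (560), adjusted p up to 0.0576 and between tissues for Zranb3 (546), Glipr1 (429 or 546), Cd84 (429 or 560) and Nceh1 (429, 546 or 560), adjusted p up to 0.0919. When probe sets were averaged, calls ended between tissues for Atp6v0d2 (adjusted p up to 0.0938).

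Macrophage genes rose in fat, and some of them also in liver. Of 29 members, 22 rose and 2 fell in fat, 7 rose and 0 fell in liver, and 7 were called higher and 1 lower in fat for the difference, with medians of 1.55 in fat and 0.63 in liver. C1qb, Cd68, Fcgr1, Mpeg1, Ms4a7 and Tyrobp rose in both tissues. Fcgr1, an antibody receptor gene, had 231, 186 and 285 in KO fat, against 44.3, 64.0 and 38.0 in WT fat, and 74.5, 88.1 and 59.7 in KO liver, against 33.3, 41.3 and 44.4 in WT liver. Its difference of 1.38 ± 0.33 passed but not with the fixed block (0.0843). C1qc (1.48 in fat, 0.11 in liver), Cd74 (1.22 and 0.08), Fcgr3 (1.62 and 0.02), Cybb (2.05 and 0.48) and Mrc1 (0.81 and -0.17) were fat-limited. Cd163, a scavenger receptor gene of resident macrophages, fell in fat (-1.001) and was at -0.82 in liver. Lyve1, a marker of lymphatic vessels and resident macrophages, went the other way: it fell in fat (-1.08 ± 0.27), measured 387, 421 and 408 in KO liver, against 253, 288 and 100.01 in WT liver (1.06, adjusted p = 0.103), and had a called difference of -2.15 ± 0.50. The Kupffer cell marker Clec4f was below the filter in fat and measured 222 to 530 in KO liver and 422 to 518 in WT liver. Summed signals of the list were 33800 to 55500 in KO fat and 14000 to 23500 in WT fat, and 11400 to 14000 in KO liver and 8700 to 10700 in WT liver. Without mice 427 and 547, 21 rose in fat, 0 were called in liver and 11 were called for the difference, all higher in fat. The liver median was then 0.65. With the fixed block the difference did not pass for C1qc (0.0848), Cd74 (0.0909), Fcgr3 (0.0909), Cybb (0.0974), Mrc1 (0.0925) and Lyve1 (0.0509). Calls were lost without the mouse in brackets in fat for C1qc (546 or 560), Cd74 (546 or 560), Fcgr3 (546 or 560) and Mrc1 (428, 429, 546 or 560), adjusted p up to 0.124, in liver for Fcgr1 (any but 560), adjusted p up to 0.151, and between tissues for Fcgr1 (427, 429, 546 or 560), C1qc (428, 429, 546 or 560), Cd74 (428, 429, 546 or 560), Fcgr3 (428, 429, 546 or 560), Cybb (428, 429, 546 or 560), Mrc1 (any but 427) and Lyve1 (427 or 429), adjusted p up to 0.132. With probe sets averaged, calls were lost in liver for Fcgr1 and between tissues for Fcgr1, Cybb and Mrc1 (adjusted p up to 0.116). Calls also ended with a random mouse block in liver for Fcgr1 (adjusted p up to 0.0506).

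Genes that moved the same way in both tissues were led by Pik3ap1, an adaptor of phosphoinositide 3-kinase signalling in immune cells. It had 595, 588 and 1007 in KO fat, against 32.8, 26.5 and 31.7 in WT fat, and 1338, 1336 and 1523 in KO liver, against 99.6, 143 and 145 in WT liver. KO arrays exceeded WT arrays many times over in both tissues, at 4.55 ± 0.23 in fat and 3.45 ± 0.16 in liver. The difference of 1.09 ± 0.30 was called (adjusted p = 0.0418) but not with the fixed block (0.0778). Mmp12, a macrophage elastase gene, rose by 3.49 in fat, and in liver, where the WT mean was below the filter, by at least 4.005-fold. Gpnmb, a lysosomal glycoprotein gene, measured 2609, 3131 and 5631 in KO fat, against 215, 859.5 and 583 in WT fat, and was at least 3.997-fold higher in KO liver. Ubd, the ubiquitin-like FAT10 gene, rose by 3.04 in fat and at least 9.12-fold in liver, and Zfp991 by 2.94 in fat and at least 5.89-fold in liver. None of these differences between tissues, other than that of Pik3ap1, was called. Of the 129 same-direction genes 7 (5.43%) lay on chromosome 19, the chromosome of Ffar4, against 3.66% of all tested genes. The share was 2.56% of opposite, 3.73% of fat-limited and 3.01% of liver-limited genes. The mice were of mixed strain background, and the part of alleles linked to Ffar4 was not tested in any class. Omitting the mouse in brackets ended calls in fat for Mmp12 (546 or 560), adjusted p up to 0.0534, in liver for Mmp12 (427 or 429), Gpnmb (427, 429 or 546) and Zfp991 (any but 546), adjusted p up to 0.229, and between tissues for Pik3ap1 (any 1 mouse), adjusted p up to 0.14. Averaging probe sets ended calls in fat for Zfp991, in liver for Pik3ap1, Gpnmb and Zfp991, and between tissues for Pik3ap1 (adjusted p up to 0.801). Further calls were lost with log2(signal + 16) values in liver for Mmp12 and between tissues for Pik3ap1 (adjusted p up to 0.14).

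Falls in both tissues were seen for Decr2, a peroxisomal enzyme of unsaturated fat (at least 3.21-fold in fat, -1.45 in liver), Gprin3 (-1.94 and -1.43), Camta1 (-1.49 and -2.16), the monocarboxylate transporter gene Slc16a4 (-1.25 and -1.84), 2810410L24Rik (-1.71 and -1.02) and A630026N12Rik (-1.13 and -1.58), with the fat value first. Without the mouse in brackets, calls were lost in fat for Gprin3 (560), Camta1 (428, 546, 547 or 560), Slc16a4 (428, 429, 546 or 560), 2810410L24Rik (560) and A630026N12Rik (427, 429, 546 or 560), adjusted p up to 0.153 and in liver for Gprin3 (429), Camta1 (any but 428), Slc16a4 (427, 429, 546 or 547), 2810410L24Rik (any but 428) and A630026N12Rik (427, 429, 546 or 547), adjusted p up to 0.138. The mean of probe sets ended calls in fat for Camta1 and Slc16a4 and in liver for Gprin3, Camta1, Slc16a4 and 2810410L24Rik (adjusted p up to 0.557). More calls were lost with a random mouse block or 1 spread for both tissues in liver for 2810410L24Rik, with all 24 arrays fitted in liver for Camta1 (adjusted p up to 0.0828).

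Immediate early and stress genes, which many cells switch on within minutes of a stimulus, rose in 12 of 26 in fat and in 8 of 26 in liver, with 0 falls and medians of 0.72 in fat and 1.23 in liver. Atf3 had 359.6, 429.5 and 892 in KO fat, against 39.9, 120.2 and 59.7 in WT fat, and 344, 64.1 and 256 in KO liver, against 20.1, 14.4 and 18.2 in WT liver. Fos (1.60 in fat and 2.95 in liver), Jun (0.76 and 2.50), Dusp1 (1.11 and 2.27), Btg2 (0.61 and 2.41) and Zfp36 (0.71 and 1.28) also rose in both. The sole difference called was that of Klf6 (0.25 in fat, 1.67 in liver), which was lost with the fixed block (0.0798). Without mice 427 and 547, 10 members rose in fat and 1 in liver, with medians of 0.69 and 0.80. With 1 mouse left out (named in brackets), calls were lost in liver for Atf3 (429) and Klf6 (429), adjusted p up to 0.0594 and between tissues for Klf6 (any but 428), adjusted p up to 0.129. When probe sets were averaged, calls ended between tissues for Klf6 (adjusted p up to 0.0643). Other losses came with log2(signal + 16) values between tissues for Klf6 (adjusted p up to 0.0586).

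Of the collagen genes Col1a1, Col1a2, Col3a1 and Col6a3 rose in both tissues, and Col1a2 and Col3a1 rose more in liver. Col3a1 had 4988, 6180 and 7054 in KO fat, against 3440, 4298 and 3471 in WT fat, and 977, 434 and 766 in KO liver, against 126, 109.5 and 128 in WT liver. Col1a2 had 3980, 4611 and 5124 in KO fat, against 3049, 3337 and 3246 in WT fat, and 521, 267 and 553 in KO liver, against 85.3, 101 and 102 in WT liver. For both genes the KO arrays were above the WT arrays in each tissue, and the log2 rise was smaller in fat (0.69 ± 0.16 and 0.50 ± 0.12) than in liver (2.51 ± 0.26 and 2.15 ± 0.26). Differences of -1.82 ± 0.34 and -1.64 ± 0.32 were called (adjusted p = 0.00998 and 0.0111) but not with the fixed block (0.0769 and 0.0766). Lum, a small proteoglycan gene, was fat-limited in contrast, with 1577, 1690 and 3057 in KO fat, against 396, 502 and 565 in WT fat, and 110.2, 101 and 134 in KO liver, against 142, 123 and 148 in WT liver. Timp3, an inhibitor of matrix proteases, fell in fat (-1.21, 0.38 in liver). Of 27 matrix genes, 11 rose and 1 fell in fat, 4 rose in liver, and 1 was called higher and 3 lower in fat for the difference, with medians of 0.62 in fat and 0.60 in liver. Called differences made up 14.8% of these matrix genes, against 9.15% of all tested genes. The fixed block ended the difference call of Timp3 (0.0563). Leaving out the mouse in brackets ended calls in fat for Col1a2 (any but 427), Col3a1 (428, 429, 546 or 560) and Timp3 (560), adjusted p up to 0.112 and between tissues for Col1a2 (546) and Timp3 (546), adjusted p up to 0.0572. With probe sets averaged, calls were lost between tissues for Col1a2, Col3a1 and Timp3 (adjusted p up to 0.332). Calls also ended with a random mouse block or 1 spread for both tissues in fat for Col1a2 and Col3a1 (adjusted p up to 0.133).

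Cell cycle genes rose in 13 of 18 in fat and in 4 of 18 in liver, with 1 fall in liver and 3 called differences, all higher in fat. Pcna (1.09 in fat, 0.25 in liver) and Mcm3 (1.03 and 0.07) were fat-limited. Tk1, thymidine kinase, was at least 4.48-fold higher in KO fat, at -0.98 in liver (adjusted p = 0.0719), and called for the difference (3.67 ± 0.72). Mki67 (2.33 and 2.61), Cdk1 (1.34 and 2.02), Mcm2 (1.26 and 1.58) and Mcm5 (1.39 and 2.06) rose in both. Without mice 427 and 547, 10 of the 18 cell cycle genes rose in fat, 0 were called in liver and 0 for the difference. The medians were then 1.34 in fat and 0.69 in liver. Cholesterol synthesis genes rose in 9 of 20 in fat and in 0 of 20 in liver, yet 1 was called for the difference, Ebp (0.67 ± 0.17), so the calls in fat alone do not show a limit to fat. The medians were 0.91 in fat and 0.58 in liver. Differences lost with the fixed block were those of Pcna (0.126), Mcm3 (0.112) and Ebp (0.102). Calls were lost without the mouse in brackets in fat for Pcna (546 or 560) and Mcm3 (546 or 560), adjusted p up to 0.0601 and between tissues for Pcna (428, 429, 546 or 560), Mcm3 (any but 427), Tk1 (429) and Ebp (428, 429, 546 or 560), adjusted p up to 0.164. Averaging probe sets ended calls in fat for Mcm3 and between tissues for Pcna and Mcm3 (adjusted p up to 0.482). Further calls were lost with all 24 arrays fitted between tissues for Mcm3, after quantile normalization between tissues for Mcm3 (adjusted p up to 0.12).

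In the insulin signalling list of 23 genes, 3 rose and 7 fell in fat and 2 fell in liver. Insr, the insulin receptor gene, fell by 1.26 in fat and was at -0.42 in liver. With its probe sets averaged its difference, -0.84 here, was 0.21. Grb14, an inhibitor of that receptor, had 245, 279 and 213 in KO fat, against 117, 125 and 133 in WT fat, and 723, 589 and 666 in KO liver, against 685, 623 and 768 in WT liver. It rose in fat by 0.96 (difference 1.03 ± 0.19). Pck1, the gene of an enzyme that makes glycerol for fat storage in adipocytes and glucose in liver, had 603, 930.0 and 498 in KO fat, against 2164, 3128 and 4014 in WT fat, and was at -0.52 in liver (adjusted p = 0.146). Its difference was -1.68 ± 0.39. Under the fixed block no difference call was left for Insr (0.053), Grb14 (0.0516) and Pck1 (0.0721). Omitting the mouse in brackets ended calls between tissues for Insr (any but 428) and Pck1 (427, 429, 547 or 560), adjusted p up to 0.133. The mean of probe sets ended calls in fat for Insr and between tissues for Insr and Pck1 (adjusted p up to 0.803).

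Drug metabolism genes above the filter in both tissues numbered 12, of which 1 fell in fat, 4 rose and 1 fell in liver, and 4 were called lower in fat for the difference. Gstm1 was at -0.57 in fat and 0.68 in liver. Complement and coagulation genes had 5 of 13 called higher in fat for the difference, with 4 falls in liver (F10, F7, C6 and Plg) and 2 rises and 1 fall in fat. F7, coagulation factor VII, was at 1.75 in fat (adjusted p = 0.0721) and -1.08 in liver. C3ar1, a complement receptor gene of macrophages, rose by 2.89 in fat and was at 0.68 in liver. The T cell chemokine gene Cxcl9 had 414, 301 and 163 in KO fat, against 669, 614 and 436 in WT fat, and 267, 342 and 255 in KO liver, against 138, 91.0 and 66.9 in WT liver. It rose in liver (1.60 ± 0.25), was at -1.05 in fat (adjusted p = 0.0676), and had a difference of -2.65 ± 0.47 that was kept in all alternatives. Of 19 chemokine and cytokine genes, 10 rose in fat, 5 rose and 1 fell in liver, and 4 were called for the difference. With the fixed block the difference did not pass for Gstm1 (0.0666) and C3ar1 (0.0929). Without the mouse in brackets, calls were lost between tissues for Gstm1 (429 or 546), F7 (428, 429, 546 or 560) and C3ar1 (429, 546 or 560), adjusted p up to 0.104. When probe sets were averaged, calls ended between tissues for C3ar1 (adjusted p up to 0.0767).

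Further fat-limited genes from the lists were Hpx, which binds free haem (2.12 in fat, -0.15 in liver), Cxcl12, a chemokine of stromal cells (0.92 and -0.21), Ldha, lactate dehydrogenase (0.51 and -0.39), Abcb4, a phospholipid exporter (1.11 and -0.14), Pdia3, a chaperone of the endoplasmic reticulum (0.73 and -0.28), and Alas2, the haem synthesis gene of red cell precursors (-1.88 and 0.46). Igfals, which carries IGF in blood and is made by hepatocytes, was at least 5.02-fold higher in KO fat and at -0.41 in liver. In the main fit no member of the hepatocyte list passed as higher in KO fat (0 of 14), against 4 without mice 427 and 547. The part of hepatocyte transcripts in the rises of Hpx and Igfals was not tested. Gbp2, an interferon-induced GTPase gene, and Hsp90aa1, a heat shock protein gene, were liver-limited (1.498 and -0.77 in liver, -0.05 and 0.05 in fat). The fixed block ended the difference call of Hpx (0.145), Abcb4 (0.198), Pdia3 (0.0509), Gbp2 (0.051) and Hsp90aa1 (0.0977). With 1 mouse left out (named in brackets), calls were lost in fat for Hpx (546 or 560), Cxcl12 (427, 428, 546 or 547), Ldha (any but 427), Abcb4 (any but 427) and Pdia3 (427, 429, 546 or 560), adjusted p up to 0.153, in liver for Hsp90aa1 (any but 560), adjusted p up to 0.151, and between tissues for Hpx (427 or 546), Cxcl12 (427 or 546), Ldha (429), Abcb4 (any but 427), Pdia3 (427, 428, 429 or 546), Gbp2 (427, 428, 546 or 547) and Hsp90aa1 (any but 560), adjusted p up to 0.171. With probe sets averaged, calls were lost in fat for Cxcl12, Ldha, Abcb4 and Pdia3, in liver for Hsp90aa1, and between tissues for Cxcl12, Abcb4 and Pdia3 (adjusted p up to 0.595). More calls were lost with all 24 arrays fitted between tissues for Pdia3, with log2(signal + 16) values in fat for Abcb4 and between tissues for Abcb4, after quantile normalization in fat for Abcb4 and between tissues for Abcb4 (adjusted p up to 0.128).

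Genes called for the difference without a class had effects that neither tissue showed clearly or that exceeded the limit in the tissue without a call. Orm3, an acute phase protein gene, was at -2.26 in fat and 2.44 in liver, Il6ra, the interleukin-6 receptor gene, at 0.48 and -1.13, and Hp, haptoglobin, at 0.36 and -0.17. The oxysterol hydroxylase gene Cyp7b1 was at 1.12 in fat and -1.24 in liver, Igf1 at 0.67 and -0.43, and its carrier gene Igfbp3 at -0.86 and 1.25. C1ra, a complement protease gene, was at 0.55 and -0.31, and the heat shock gene Hsph1 at 0.63 and -1.10. Cyp2e1, which belongs to the same-direction class instead, fell in both tissues, by more in fat (-1.77 and -0.37). Of 28 unfolded protein and heat shock genes 3 were called for the difference (10.7%), and of 15 growth hormone response genes 3 (20.0%), against 9.15% of all tested genes. Differences lost with the fixed block were those of Il6ra (0.059), Hp (0.0981), Cyp7b1 (0.117), Igf1 (0.0587), C1ra (0.0912) and Hsph1 (0.0652). Leaving out the mouse in brackets ended calls between tissues for Orm3 (427, 429 or 546), Il6ra (427, 429, 546 or 560), Hp (any but 427), Cyp7b1 (427, 546 or 560), Igf1 (428, 429, 546 or 547), Igfbp3 (429, 546 or 560), C1ra (428, 429, 546 or 547) and Hsph1 (428, 429, 546 or 560), adjusted p up to 0.171. Averaging probe sets ended calls between tissues for Il6ra, Hp, Cyp7b1, Igf1 and Hsph1 (adjusted p up to 0.486). Other losses came with all 24 arrays fitted between tissues for Hp (adjusted p up to 0.304).

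Genes above the filter in a single tissue could not enter the contrast: 1361 in fat, of which 165 were higher and 113 lower in KO mice, and 1100 in liver, of which 37 were higher and 38 lower. In fat the retinol-binding protein gene Rbp7 had 451, 879 and 474 in KO fat, against 5128, 4859 and 5443 in WT fat. All KO arrays were below all WT arrays (-3.16 ± 0.25, adjusted p = 0.00608), and so they were for the glutamate transporter gene Slc1a3 (-3.06 ± 0.26). The serotonin synthesis gene Tph2 rose by 5.51 ± 0.67, and Gpr50, an orphan receptor gene, was at least 26.1-fold higher in KO fat. Cck, the gene of a gut hormone, was at least 4.81-fold higher, Fat3 at least 4.39-fold, and Esm1 at least 1.91-fold lower. B3galt2 fell by 2.59 ± 0.68. In liver, drug metabolism enzymes moved both ways. Cyp2c39 had 2124, 2053 and 1682 in KO liver, against 17.9, 3.37 and 9.14 in WT liver, at least 136-fold higher in KO mice, and Cyp2b9 rose by 5.37 ± 0.19 (adjusted p = 4.72e-06). Cyp2c37 had 73.5, 80.8 and 50.9 in KO liver, against 3691, 3008 and 4120 in WT liver, a change of -5.74 ± 0.19 (adjusted p = 4.72e-06). Moxd1 was at least 87.4-fold lower, with 0.48, 0.69 and 0.65 in KO liver, against 2523, 1006 and 245 in WT liver. Hsd3b5, a steroid enzyme gene, was at -2.42 ± 0.37, Themis, a T cell gene, was at least 10.1-fold higher, Slc22a27 at least 2.48-fold higher and Rcor2 at least 1.91-fold lower. The neighbouring members of the Cyp2c family share sequence, so their probe sets may pick up each other's transcripts. Calls were lost without the mouse in brackets in fat for Fat3 (429, 546 or 560), Esm1 (546, 547 or 560) and B3galt2 (427, 429, 546 or 560), adjusted p up to 0.15 and in liver for Hsd3b5 (429), Themis (427, 428 or 429), Slc22a27 (427, 428 or 429) and Rcor2 (any but 560), adjusted p up to 0.197. Calls also ended with all 24 arrays fitted in liver for Rcor2 (adjusted p up to 0.0868).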

How the data were processed

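Epididymal fat and liver of KO and WT mice on HFD were measured on Affymetrix arrays. The authors deposited 1 intensity per probe set, the MAS5 signal per the submitters' processing notes. A common scale over all arrays was assumed. No source used here gives the MAS5 version or its scaling target. Detection calls were left aside. Of 45101 probe sets, 64 controls were left out, 34945 had 1 gene symbol, 932 several and 9160 none in the platform annotation, and 34754 symbols were updated by gene ID. Intensities were floored at the 10th percentile (0.96 in fat, 1.07 in liver) and taken to log2. Each of 18193 genes was read by its brightest probe set. Genes whose mean over the HFD arrays of a tissue reached the median of all probe sets there (18.5 in fat, 14.4 in liver) were kept: 11407 in fat, 11146 in liver and 10046 in both. This mean takes KO and WT arrays together, so a gene dim in 1 genotype passed if it was bright in the other. The contrasts were fitted with limma 3.58.1 in R 4.3.3 on the 12 arrays, each tissue with its own spread for the single-tissue effects and both together for the difference, without a block. Calls have a Benjamini-Hochberg adjusted p under 0.05. Errors after ± are standard errors of log2 differences unless named SD, and the code was tested on simulated data.

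The labels give each mouse 1 fat and 1 liver array, so mouse numbers pair the tissues. Deviations from the group means correlated within a mouse with Pearson's r of 0.0397 to 0.131 across genes. The paired fit is given where it changes a call. Each array is another tissue sample, and nothing says that mice of a group differ in litter or cage.

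Where the dimmer group's mean lies under the filter the fold is given as "at least", against the filter value, a rule chosen with the values known. Genes were named as follows: up to 24 opposite genes by the smaller of both effects, the 8 largest rises and 8 largest falls of each limited class, the 6 largest of the same-direction class, and up to 4 called members of each gene list, all with KO and WT mice that do not overlap. For genes kept in 1 tissue it was the 4 largest rises and falls. The lack of overlap was required in fat minus liver values, and for same-direction genes in each tissue. Where it was a condition of being named, it adds no support of its own. Other members are given as values. Members, lists and classes were chosen with earlier results of these data known. As alternatives the fits were repeated after quantile normalization, without the filter, without the floor, with an offset of 16, the mean of probe sets, fixed or random mouse blocks, 1 spread for both tissues, all 24 arrays and each mouse left out.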

Additional observations from a re-analysis of the deposited data

Results flagged for a closer look

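The KO effect on HFD differed between fat and liver for 919 genes by the limma test of the difference itself, and the 139 of them that the text gives with their effects are given here as the fat minus liver difference of log2 KO minus WT values. Genes lower in KO fat and higher in KO liver had differences of -11.06 for Cidea, -5.99 for Mogat1, -4.20 for Plin4, -3.84 for Lnx1, -2.95 for Mgst3, -2.75 for Snhg11, -2.58 for Enc1 and -2.49 for Pparg. After these stood -2.45 for Slc44a3, -2.33 for Pdk4, -2.04 for Rcan2, -2.03 for Fbln5, -1.99 for Pithd1, -1.76 for Gstt1, -1.74 for Prxl2a and -1.63 for Pex11a. They were followed by -1.62 for Dhrs7b, -1.62 for Aox1, -1.94 for Rab34, -1.81 for Kyat3, -1.65 for Gnai1, -1.45 for Fmo1, -1.42 for Bckdhb and -1.41 for Siah1a. The last were -1.30 for Echdc3, -1.24 for Uap1 and -1.06 for Suclg2. Genes of the opposite direction had 4.77 for Cxcl14, 3.21 for Pla2g7, 2.48 for F10, 1.94 for Gys2, 1.75 for Fgf1, 1.70 for Nagpa, 1.65 for Dna2 and 1.58 for Ece2, and 2.82 for Cyp2c23, 2.42 for Daglb, 1.48 for Stard3 and 0.86 for Cnpy2.

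Fat-limited genes with a negative difference had -4.50 for Acsm3, -3.57 for Ces1f, -3.27 for Fam13a, -2.94 for Vnn1, -2.86 for Acacb, -2.49 for Plin5, -2.46 for Ctcflos and -2.36 for Vnn3. Next came -2.34 for Alas2, -2.15 for Ces1d, -1.76 for Robo4, -1.59 for Timp3, -1.34 for Ptprb, -1.24 for Eng, -1.22 for Ramp2 and -0.84 for Insr. Then came -0.56 for Ndufv1 and -0.50 for Ndufb8. List members among them had -1.66 for Flt1, -1.46 for Adipor2, -1.43 for Kdr, -1.41 for Cldn5, -1.19 for Gpam, -1.15 for Cdh5 and -1.07 for Cpt2. Smaller ones were -0.81 for Ech1, -0.76 for Slc25a20 and -0.74 for Acads. Positive differences of fat-limited genes were 3.79 for Slc25a13, 3.75 for Atp6v0d2, 3.47 for Igfals, 3.36 for Rnf128, 3.35 for Zranb3, 3.26 for Il1rn, 3.05 for Cadm1 and 3.04 for Cd84. After these stood 3.03 for Nceh1, 2.99 for Glipr1, 2.32 for Lum, 2.27 for Hpx, 1.38 for C1qc, 1.25 for Abcb4, 1.14 for Cd74 and 1.13 for Cxcl12. They were followed by 1.03 for Grb14, 1.01 for Pdia3, 0.96 for Mcm3, 0.89 for Ldha and 0.83 for Pcna, and by 1.60 for Fcgr3, 1.57 for Cybb and 0.97 for Mrc1.

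Liver-limited genes that rose in KO liver had -5.37 for Zfp979, -4.30 for Lgals1, -3.67 for Gstm3, -3.56 for Scd1, -3.14 for Kbtbd11, -2.83 for Cd36, -2.67 for Vldlr and -2.54 for Me1. After these stood -2.08 for Gstm2, -1.76 for Fabp4, -1.63 for Lpl, -1.55 for Gbp2 and -1.42 for Klf6. Those that fell in KO liver had 3.29 for Grip2, 3.05 for Tcea2, 2.74 for H2-Bl, 2.70 for Enho, 1.92 for Egfr, 1.496 for Ppan, 1.09 for Cav1 and 1.02 for Prxl2b. They were followed by 0.82 for Hsp90aa1 and 0.58 for Hadha. Of the genes that moved the same way in both tissues, a difference was called at -1.82 for Col3a1, -1.64 for Col1a2 and -1.40 for Cyp2e1. On the positive side it was 1.38 for Fcgr1 and 1.09 for Pik3ap1. Genes in none of these classes had negative differences of -4.70 for Orm3, -2.65 for Cxcl9, -2.15 for Lyve1, -2.11 for Igfbp3, -1.68 for Pck1 and -1.26 for Gstm1, with -3.03 for Cidec, -1.79 for Acaca and -1.53 for Srebf1. Their positive differences were 3.67 for Tk1, 2.83 for F7, 2.36 for Cyp7b1, 2.21 for C3ar1, 1.74 for Hsph1, 1.60 for Il6ra, 1.10 for Igf1 and 0.86 for C1ra. Then came 1.01 for Stab2, 0.67 for Ebp and 0.53 for Hp.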

How the results depend on the processing

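Numbers of calls depended on single mice and on the filter, and the cause was not tested. With 1 mouse left out, 273 to 727 genes were called for the difference, 480 to 1438 in fat and 139 to 692 in liver, and there were 5 to 25 opposite, 127 to 383 fat-limited, 32 to 87 liver-limited and 23 to 79 same-direction genes. Without a filter on low signals, where more genes are tested, 907 genes were called in fat and 216 in liver, with 5 opposite, 237 fat-limited, 53 liver-limited and 25 same-direction genes. When a gene's probe sets were averaged, 537 were called for the difference and 333 in liver, with 19 opposite, 276 fat-limited, 66 liver-limited and 70 same-direction genes. With that mean the sign turned for Pithd1 (0.46 between tissues, 0.12 in fat and -0.34 in liver), Ece2 (-0.20 between tissues and 0.40 in liver), Insr (0.21 between tissues), Prxl2a (-0.12 in liver) and Uap1 (-0.12 in liver). The replicate block with the mouse as a fixed term, the paired fit, called 245 differences, and a random mouse block called 1070 (correlation 0.0547). With all 24 arrays in the fit 742 genes were fat-limited. Without mice 427 and 547, an alternative chosen after seeing the data, 351 were called for the difference and 44 in liver, with 6 opposite, 184 fat-limited, 10 liver-limited and 9 same-direction genes. Of the 39 opposite genes, 37 were again opposite after quantile normalization, 39 with no floor, 39 with log2(signal + 16), 25 with the random block, 15 with the mean of probe sets and 3 without a filter. Of the 139 called differences given with their effects, 38 kept direction and call in all 15 alternatives, 101 lost the call in at least 1, and 3 of those turned sign. Without the filter, 51 of 116 given fat calls were lost, those of Cidea, Cxcl14, Pla2g7, Plin4, Slc44a3, Pithd1, Rcan2, Fgf1, Dhrs7b, Pex11a, Prxl2a, Dna2, Nagpa, Aox1, Gys2, Ece2, Acsm3, Mmp12, Camta1, Gprin3, Slc16a4, A630026N12Rik, Cyp2e1, Col3a1, Col1a2, Alas2, Cxcl12, Hpx, F10, Ndufb8, Ndufv1, Ldha, Abcb4, Pdia3, Bckdhb, Echdc3, Fmo1, Gnai1, Kyat3, Rab34, Suclg2, Uap1, Cyp2c23, Stard3, Cnpy2, Cpt2, Acads, Fcgr3, Mrc1, Fat3 and B3galt2. In liver 48 of 86 were lost, those of Cxcl14, Lnx1, Pla2g7, Plin4, Slc44a3, Enc1, Snhg11, Pdk4, Rcan2, Fgf1, Pex11a, Fbln5, Nagpa, Gys2, Ece2, Kbtbd11, Tcea2, Egfr, Cav1, Ppan, Mmp12, Atf3, Zfp991, Gpnmb, Camta1, Slc16a4, A630026N12Rik, 2810410L24Rik, Fcgr1, Cyp2e1, Gstt1, Klf6, Hsp90aa1, Fmo1, Gnai1, Kyat3, Siah1a, Uap1, Cyp2c23, Daglb, Stard3, Cnpy2, Lpl, Hadha, Themis, Slc22a27, Rcor2 and Hsd3b5. Between tissues 25 of 139 were lost, those of Ces1d, Enho, Egfr, Prxl2b, Ppan, Pik3ap1, Cyp2e1, Hp, Ebp, Ndufb8, Ndufv1, Insr, Abcb4, Igf1, Klf6, Pdia3, Hsph1, Hsp90aa1, Pcna, Mcm3, Hadha, Stab2, Cdh5, Fcgr3 and Mrc1. Without mice 427 and 547 the losses numbered 28 in fat, 61 in liver and 62 between tissues. These counts cover the calls that were put through the other fits, not every call given in the text. Two-sided exact permutation of 3 against 3 mice cannot go below p = 0.1, so a call rests on the spread that limma shares between genes. A signal near the floor has no order, and brightness limits what can be said of dim genes.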

Other observations

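On the normal diet (ND), the other arrays of the series give the same contrast in other mice. There 126 of 10046 genes were called for the difference between fat and liver (limma, 1650 at an unadjusted p under 0.05), 68 in fat and 318 in liver. Of the 39 genes with opposite effects on HFD, 1 was called for the difference on ND, 0 in fat and 7 in liver. The one was Cxcl14, at -4.97 ± 0.73 in ND liver (adjusted p = 0.00576) and 5.44 between tissues (adjusted p = 0.0108). Its mean in ND liver was 4.12 in KO mice, below the filter of 14.4, against 87.4 in WT mice. The size of both log2 values thus rests on dim signals. Pparg was higher in KO liver on ND as well (2.11 ± 0.42, adjusted p = 0.0262), as were Mgst3 (1.17 ± 0.17, adjusted p = 0.00576), Plin4 (0.96 ± 0.21, adjusted p = 0.0397), Aox1 (0.80 ± 0.18, adjusted p = 0.0397) and Echdc3 (0.60 ± 0.14, adjusted p = 0.0458), and Ece2 was lower (-0.79 ± 0.18, adjusted p = 0.0448). Cidea on ND averaged 80.2 in KO fat and 130.0 in WT fat, and 7.36 in KO liver and 6.20 in WT liver, and neither tissue's difference passed (adjusted p = 0.913 and 0.855). Mogat1 on ND averaged 78.8 in KO fat and 54.3 in WT fat, and 39.0 in KO liver and 28.3 in WT liver (adjusted p = 0.28 and 0.486). The genes were chosen on HFD values, and the difference between diets was not tested.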
